A study of Mus musculus with 7 samples.

Results

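The antioxidant response was followed through 10 genes in lesional skin of bleomycin-treated mice, out of 23185 genes measured. The genes are Nfe2l2, Keap1, Nqo1, Gclc, Gclm, Txnrd1, Srxn1, Slc7a11, Sod3 and Cat. They were chosen by gene symbol as regulators and effectors of the oxidative stress response, with earlier results of these data known, and all 10 of the 10 listed had 1 probe set each on the array. Of the 7 arrays, 4 held skin of ox40l-/- mice, called knockout here, and 3 held skin of ox40l+/+ mice, called wild type. Both genotypes are labelled C57BL/6, and every mouse was a male of 9 weeks that had received bleomycin for 3 weeks. The sample descriptions carry code numbers that pairs of arrays share, 16 on knockout replicates 1 and 2, 17 on wild type replicates 1 and 2, and 18 on wild type replicate 3 and knockout replicate 3. The labels do not say what the numbers mean, so the arrays may not all be independent animals. The allele was not described further in the labels, and no sample without bleomycin was analysed here, so the values speak of genotype under bleomycin and not of the response to the drug. OX40L, the product of Tnfsf4, is a costimulatory ligand of T cells, and bleomycin is a DNA-damaging agent that produces oxidants with iron and is injected into mouse skin to induce fibrosis.

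NRF2, encoded by Nfe2l2, is the transcription factor that raises antioxidant genes when cells meet oxidants or electrophiles. In resting cells KEAP1 presents NRF2 to a ubiquitin ligase for destruction, and oxidation of KEAP1 cysteines lets NRF2 accumulate, pair with small MAF proteins and bind antioxidant response elements. Because that switch acts on the protein, the Nfe2l2 transcript need not follow the activity of NRF2, and the transcripts of its targets are the usual readout. Among them, GCLC and GCLM form the enzyme that limits glutathione synthesis, SLC7A11 imports the cystine it needs, TXNRD1 and SRXN1 keep thioredoxin and peroxiredoxins reduced, and NQO1 reduces quinones. SOD3 is the superoxide dismutase of the extracellular matrix and catalase breaks down hydrogen peroxide. In skin, NRF2 is best known from keratinocytes.

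The antioxidant response element can be searched for in the RefSeq promoter windows of GRCm38.p6, which run from 250 bases before to 50 bases after a gene's start. Its core was written TGACNNNGC, which reads GCNNNGTCA on the opposite strand, and both strands were searched. Windows were held for 8 of the 10 genes, not for Gclc and Sod3, and came to 10 in all. Of these, 4 windows, 1 each of Nfe2l2, Gclm, Txnrd1 and Srxn1, held a match. Of all 32851 promoter windows, 12.4% held one. Of the 3 windows of Txnrd1, 1 held a match. The matches follow with up to 40 bases on each side, so that genes with steady and with uneven levels can be read side by side. Each is written along the gene's own strand with the match in capitals, and none overlapped the AP-1 motif TGACTCA.
Txnrd1, chr10:82859074-82859162 (+ strand): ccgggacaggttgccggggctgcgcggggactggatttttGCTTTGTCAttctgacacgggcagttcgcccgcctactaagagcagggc
Gclm, chr3:122245383-122245471 (+ strand): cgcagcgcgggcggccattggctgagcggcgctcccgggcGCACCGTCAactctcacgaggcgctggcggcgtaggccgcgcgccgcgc
Srxn1, chr2:152105512-152105573 (+ strand): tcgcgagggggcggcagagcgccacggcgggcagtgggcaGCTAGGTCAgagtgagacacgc
Nfe2l2, chr2:75704855-75704913 (- strand): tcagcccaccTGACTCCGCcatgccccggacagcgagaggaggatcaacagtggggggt
The match began 92 bases before the start in Txnrd1, 134 before it in Gclm and 240 before it in Nfe2l2, and at base 29 of the transcript in Srxn1. A match describes letters and not a bound site, and its absence from the windows of Cat, Keap1, Nqo1 and Slc7a11 says only that these letters were not in them.

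Levels are given as log2 values, as deposited after RMA (robust multi-array averaging, a background, quantile normalization and summary procedure for probe sets). A difference is always knockout minus wild type on that scale. The arrays were not alike in spread, since the SD of a whole array was 1.38 to 1.48 on 5 arrays but reached 1.72 in wild type replicate 1 and only 1.22 in replicate 3. The same wild type arrays stood apart in tissue markers, and whether tissue content or array spread set these marker levels was not tested. The mean of 6 hair follicle markers lay between 3.55 and 5.98 on 6 arrays and reached 9.63 on wild type replicate 1, where all 6 were highest, and the mean of 5 keratinocyte markers was 9.34 there (4 of the 5 were highest), 6.94 on wild type replicate 3 and 7.97 to 8.44 elsewhere. The 5 keratinocyte markers ranged from 4.94 to 10.94 over all arrays, so the skin label was borne out on each. Muscle transcripts were present too, since the mean of 5 skeletal muscle markers was 7.27 on wild type replicate 3 and 8.87 to 9.59 elsewhere. The mean of the 4 measured erythroid markers separated the genotypes instead, at 4.85 to 5.03 on the knockout arrays and 3.89 to 4.28 on the wild type arrays. That came from Hbb-b1, a beta globin gene, at 9.27 to 10.28 in knockout and 6.34 to 6.62 in wild type, a difference of 3.28 (SE 0.24, limma adjusted p = 0.0468). It was the 1 gene of all genes that was called, the genotypes overlapped in the other 3 erythroid markers, and probes of near-identical globin genes can cross-hybridise. Tnfsf4, the targeted gene, ranged from 2.81 to 3.35 over the knockout arrays and from 2.53 to 3.65 over the wild type arrays. Where its probe set lies relative to the deletion is not given in the sources used here, so these levels check no label. In whole skin, fewer cells of a type and less RNA per cell cannot be told apart.

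None of the 10 genes passed the test between genotypes. Of them, 4 had a higher mean in knockout and 6 a lower one, in a comparison in which 48.3% of all genes were lower. At an adjusted p under 0.05 in limma 0 of the 10 were called, against 0.00431% of all genes, and at an unadjusted p under 0.05 also 0, against 1.88%. The genotypes overlapped in all 10, while they did not overlap in 1.91% of all genes. The median difference of the 10 genes was -0.10, and that of all genes was 0.01. The adjusted p was 0.9995 for each of the 10 genes in limma.

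**Figure D1:**
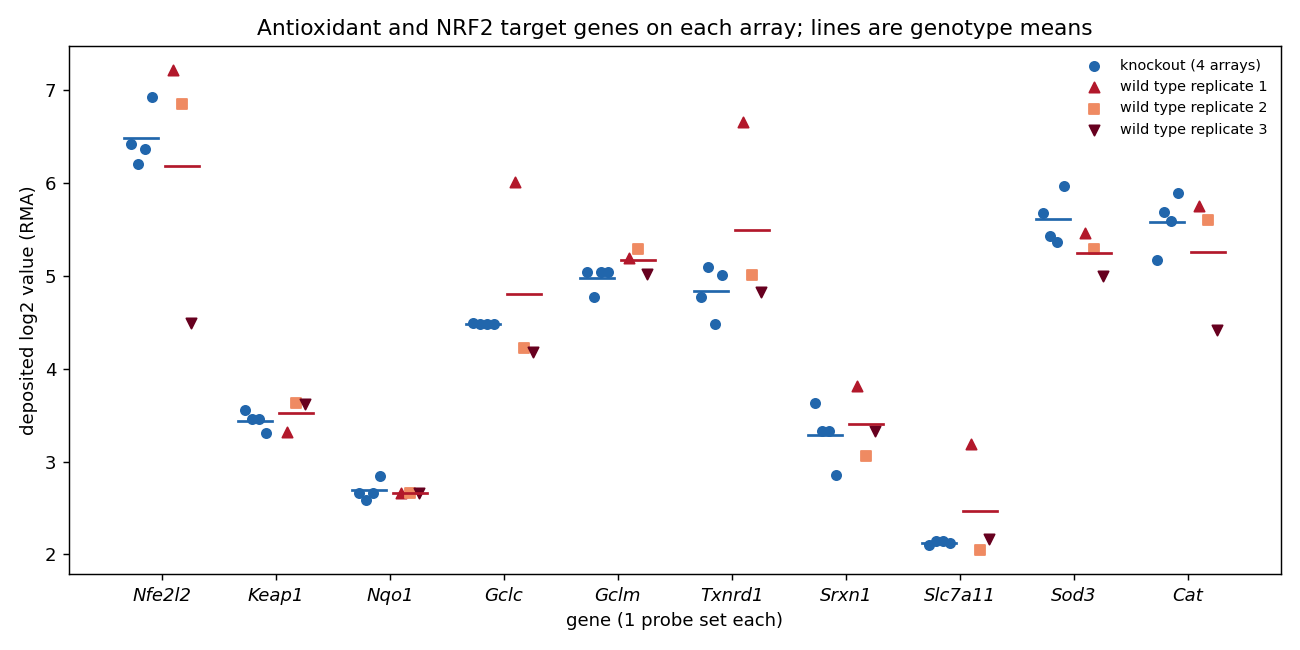
Deposited log2 values (y axis) of the 10 genes (x axis) on each array, with 4 knockout arrays as blue circles, the 3 wild type arrays as separate red markers, and horizontal lines for the genotype means. Wild type replicate 1 stands above the other arrays in Gclc, Txnrd1 and Slc7a11, and wild type replicate 3 below them in Nfe2l2 and Cat.

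The spread was larger in wild type than in knockout. The SD was larger in wild type for 7 of the 10 genes, and for 76.9% of all genes. The median SD of the 10 genes was 0.50 in wild type and 0.21 in knockout, beside 0.39 and 0.19 over all genes. Wild type replicate 1 held the highest value in 5 of the 10 genes, against 25.3% of all genes. Wild type replicate 3 held the lowest in 4 of the 10, against 19.2% of all genes. Over all genes, replicate 1 also held the lowest value in 39.1%, and in 0 of the 10. The highest value stood on replicate 3 in 30.1% of all genes, and in 0 of the 10. Repeated values were common. In 6 of the 10 genes at least 1 value occurred on more than 1 array, as in 54.3% of all genes. A median polish, the usual summary step of RMA, can return equal values. The same value could also stand in different genes, as 6.36276 on wild type replicate 1 in Prdx1 and Prdx2. The cause of the repeats was not tested.

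Of the regulators, Nfe2l2 was uneven and Keap1 was steady. Nfe2l2 was at 6.42, 6.21, 6.37 and 6.93 on the 4 knockout arrays and at 7.22, 6.85 and 4.50 on wild type replicates 1, 2 and 3. Wild type thus held both the highest and the lowest array, and replicate 3 lay 1.71 below the next lowest, a gap of at least 1 that 2.78% of all genes showed there. Knockout minus wild type came to 0.29 (SE 0.62, 95% confidence interval -1.16 to 1.75), and it turned to -0.55 without wild type replicate 3 and was 0.81 without replicate 1.

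Keap1, the repressor of NRF2, was at 3.55, 3.45, 3.45 and 3.30 in knockout and at 3.32, 3.63 and 3.62 in wild type. The genotypes overlapped only through wild type replicate 1. The difference was -0.08 (SE 0.14, 95% confidence interval -0.42 to 0.25), and it stayed below 0 in the 21 alternatives in which Keap1 was tested, from -0.19 to -0.03. Some of these, such as a filter or another moderation, could not change the difference. Its values were below the array median on 6 of the 7 arrays, so its probe set was dim.

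The glutathione arm, Slc7a11, Gclc and Gclm, showed that the wild type mean of a gene could rest on 1 array. Gclc, the catalytic subunit of glutamate-cysteine ligase, was at 4.49 on knockout replicate 1 and at 4.48 on the other 3 knockout arrays, and at 6.01, 4.22 and 4.18 on wild type replicates 1, 2 and 3. Wild type replicate 1 lay 1.52 above the next highest array, and the other wild type arrays lay below every knockout array. The difference was -0.32 (SE 0.43, 95% confidence interval -1.33 to 0.69), and it turned to 0.28 without wild type replicate 1. The limma p was then 0.0280 unadjusted and 0.905 adjusted, in a run where 3.18% of all genes had an unadjusted p under 0.05. That array was the one seen above to be far, and the knockout values spanned only 0.00583, so this p is no separate support.

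Slc7a11, the cystine transporter subunit, was at 2.10, 2.14, 2.14 and 2.12 in knockout and at 3.19, 2.04 and 2.16 in wild type. Again wild type replicate 1 alone was high, by 1.02 over the next array, and the other 6 arrays spanned little. The difference of -0.34 (SE 0.28, 95% confidence interval -0.98 to 0.31) became 0.02 without that array. All 7 values were below the array median, so Slc7a11 was a dim probe set even where it was highest.

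Slc3a2, whose product is the heavy chain that SLC7A11 needs at the cell surface, was likewise highest on wild type replicate 1 and lowest on replicate 2. It was at 5.58 on wild type replicate 1, at 3.26 and 3.52 on the other wild type arrays and at 3.29 to 3.57 in knockout. The difference of -0.71 (SE 0.52) became 0.02 without wild type replicate 1.

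Gclm, the modifier subunit of glutamate-cysteine ligase, did not follow Gclc. It was at 5.04, 4.77, 5.04 and 5.04 in knockout and at 5.19, 5.29 and 5.02 in wild type. Wild type replicates 1 and 2 were above all knockout arrays and replicate 3 was just below 3 of them, and the 7 arrays spanned 0.52. The difference was -0.19 (SE 0.14, 95% confidence interval -0.53 to 0.14), and it stayed below 0 in all 22 alternatives, from -0.32 to -0.11. Some of these, such as a filter or another moderation, could not change the difference. Gclm was the 1 of the 10 genes that an alternative called, at a limma adjusted p of 0.0210 with array weights, which called 17.4% of all genes after their estimation failed to converge.

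In the thioredoxin arm, Txnrd1 had the largest difference of the 10 genes and rested on the same array as Gclc. Txnrd1, cytosolic thioredoxin reductase, was at 4.77, 5.10, 4.48 and 5.01 in knockout and at 6.66, 5.01 and 4.83 in wild type. Wild type replicate 1 was 1.56 above the next highest array, and the other wild type arrays lay within the knockout range. The difference of -0.66 (SE 0.44, 95% confidence interval -1.69 to 0.37) fell in size to -0.08 without wild type replicate 1 and was -0.99 without replicate 3.

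Srxn1, sulfiredoxin, which repairs overoxidised peroxiredoxins, was at 3.63, 3.32, 3.33 and 2.86 in knockout and at 3.81, 3.06 and 3.32 in wild type. Its knockout arrays alone spanned 0.78, more than the difference of -0.11 (SE 0.25, 95% confidence interval -0.69 to 0.46). The sign turned without wild type replicate 1 (0.09) and without knockout replicate 4 (0.03), and 5 of its 7 values were below the array median.

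Gclc, Txnrd1 and Slc7a11 were at least 1 higher on wild type replicate 1 than on any other array, 3 of the 10 genes, as were 5.63% of all genes. The 3 genes were picked out for this after their values were seen. The mean hair follicle and keratinocyte marker levels were highest on that array too, as given above, and so were those of the sebaceous gland, fibroblast and macrophage markers, with 2, 3 and 2 of their 5 genes at their highest. With the mean hair follicle marker level as a covariate the differences of these genes were 0.32, -0.07 and 0.03, and with the keratinocyte marker level -0.35, -0.69 and -0.36. The part of these cells in the result was not tested. Those fits cannot separate it, since 1 array carries the markers, the genes and the largest array SD. With array SD as a covariate the differences of Gclc, Txnrd1 and Slc7a11 were -0.14, -0.47 and -0.24. Set beside the promoter windows, Gclm and Srxn1 hold a match as Txnrd1 does. On wild type replicate 1 they lay 0.09 below and 0.18 above the highest of the other arrays, while Slc7a11 was high there and holds none. No window was held for Gclc, and the part of the element in these levels was not tested.

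**Figure D2:**
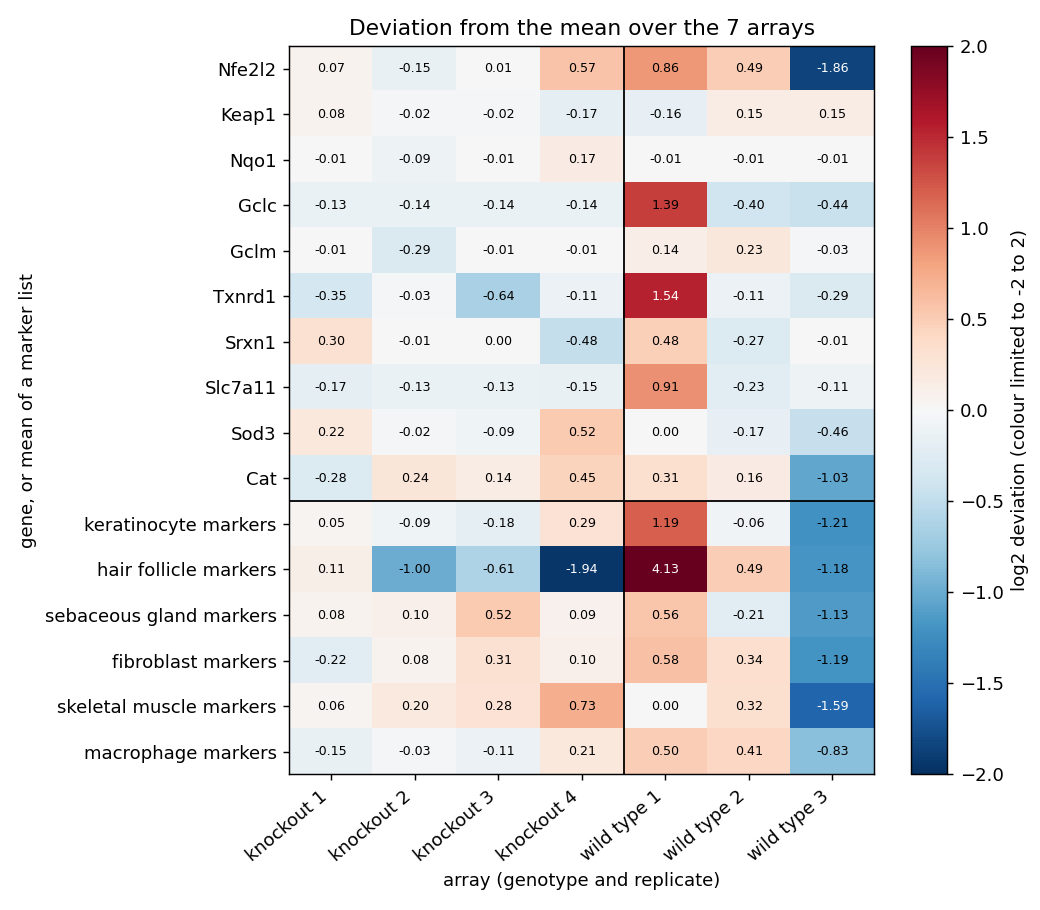
Log2 deviation of each of the 10 genes, and of the mean of 6 lists of cell type markers, from its mean over the 7 arrays (columns, knockout left and wild type right of the line); red is above and blue below the mean, with the value in each cell. Wild type replicate 1 is high in Gclc (1.39), Txnrd1 (1.54), Slc7a11 (0.91) and hair follicle markers (4.13), and wild type replicate 3 is low in Nfe2l2 (-1.86), Cat (-1.03) and below the mean in every marker list drawn.

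Nqo1, the quinone reductase most often used as a readout of NRF2, was flat. It was at 2.66, 2.58, 2.66 and 2.84 in knockout and at 2.66 on all 3 wild type arrays. The same value, to every digit deposited, stood on 5 arrays, and all 7 values were below the array median. The difference was 0.02 (SE 0.13, 95% confidence interval -0.27 to 0.32), so a difference of more than 1.25-fold in either direction lay outside the interval. A dim probe set with so many equal values can also hide a change, and the other readouts have wider intervals.

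Sod3 and Cat, which act on superoxide and hydrogen peroxide, had higher means in knockout that did not pass the test. Sod3, extracellular superoxide dismutase, was at 5.67, 5.43, 5.37 and 5.97 in knockout and at 5.46, 5.29 and 5.0005 in wild type. All knockout arrays were above wild type replicates 2 and 3, and knockout replicates 2 and 3 were below wild type replicate 1. The difference was 0.36 (SE 0.20, 95% confidence interval -0.10 to 0.83), and the limma p was 0.107 unadjusted and 0.9995 adjusted, the former the smallest of the 10 genes. It stayed above 0 in all 22 alternatives, from 0.24 to 0.47. Those that changed only the moderation, the filter or the probe sets tested could not move it. After a further quantile normalization of the deposited values its limma p was 0.0196 unadjusted and 0.999 adjusted. Sod3 was then the 1 of the 10 genes with an unadjusted p under 0.05, as it was after scaling the arrays to one SD and with array SD as a covariate, where 3.06%, 2.83% and 7.61% of all genes were under it.

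Cat, catalase, was at 5.17, 5.69, 5.59 and 5.89 in knockout and at 5.76, 5.60 and 4.41 in wild type. Wild type replicates 1 and 2 lay within the knockout range and replicate 3 lay 0.76 below every other array. The difference of 0.33 (SE 0.35, 95% confidence interval -0.49 to 1.14) turned to -0.10 without that array. Nfe2l2 and Cat were thus lowest on wild type replicate 3, as were Gclc and Sod3, and the means of the keratinocyte, sebaceous gland, fibroblast, skeletal muscle, macrophage, adipocyte and endothelial markers were lowest there as well, with 5, 3, 3, 5, 4, 3 and 2 of their 5 genes at their lowest. Their part in the low values, and that of Hbb-b1 in the higher knockout means, was not tested. With array SD as a covariate the differences of Nfe2l2 and Cat were 0.58 (SE 0.27) and 0.47 (SE 0.20).

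**Figure D3:**
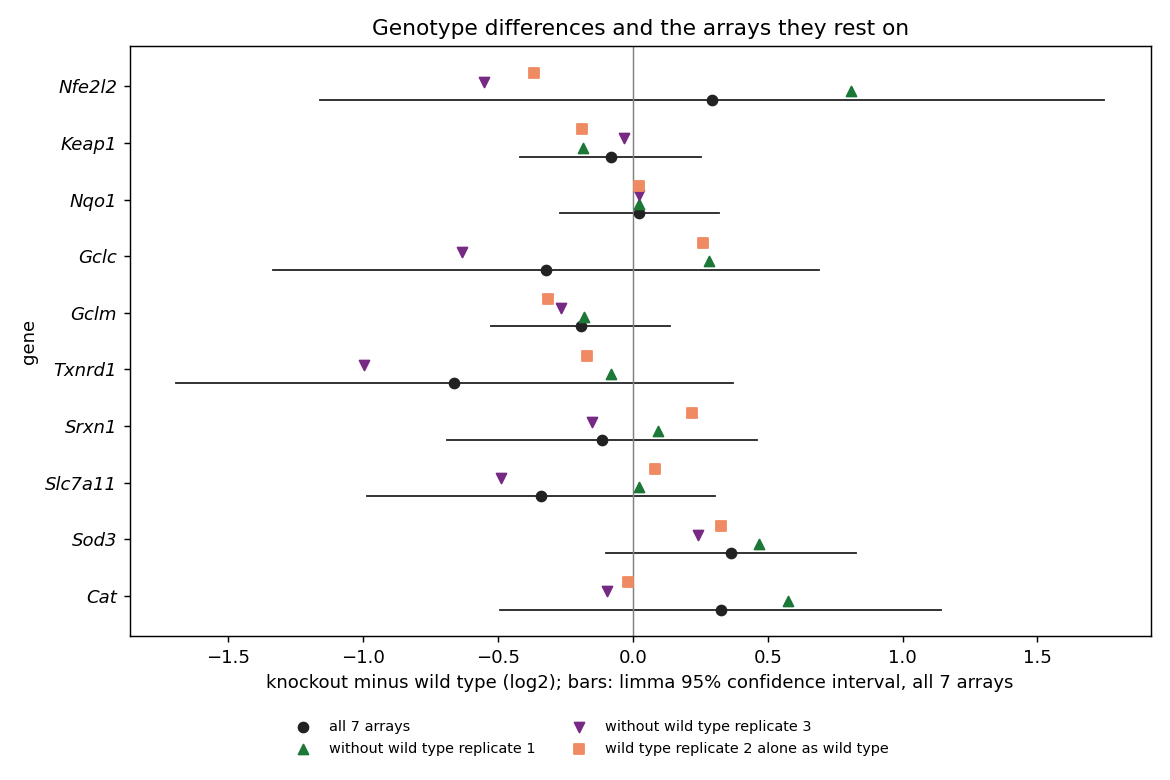
Knockout minus wild type difference (x axis, log2) of each gene (y axis) from all 7 arrays with its 95% confidence interval from limma, and without wild type replicate 1, without replicate 3, or with replicate 2 as the only wild type array. Every interval includes 0, and the signs of Nfe2l2, Gclc, Srxn1, Slc7a11 and Cat depend on which wild type arrays are used.

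Leaving out single wild type arrays changed the counts over the 10 genes. Without wild type replicate 1, 3 of the 10 genes had a lower mean in knockout, where 53.7% of all genes did, and without replicate 3, 8 of the 10, where 41% did. The genotypes then did not overlap in Gclc, Keap1 and Sod3 without replicate 1, 3 of the 10, against 7.84% of all genes, in 1 of the 10 without replicate 2, against 8.59%, and in 1 of the 10 without replicate 3, against 21.4%. With wild type replicate 2 as the only wild type array, 5 of the 10 genes were lower in knockout, against 45% of all genes. That array lay within the knockout range in 5 of the 10 genes, Nfe2l2, Nqo1, Txnrd1, Srxn1 and Cat, and outside it in the other 5, as in 37.5% of all genes. In none of these runs did a gene of the 10 pass an adjusted p under 0.05 in limma, while 1 had an unadjusted p under 0.05 without replicate 1 (Gclc), against 3.18% of all genes, and 1 with replicate 2 alone (Gclc), against 8.73%. With keratinocyte markers as a covariate 1 of the 10 did (Txnrd1), against 10.5% of all genes, and with array weights 3 did, against 31.8%. With hair follicle markers as a covariate 3 of the 10 were lower in knockout, against 53.9% of all genes, and 3 of the 6 genes left without the dimmest 50% of genes were, against 54%.

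The intervals set what these arrays could show. Differences beyond 2-fold lay inside the 95% confidence interval in Nfe2l2, which ran from 0.447-fold to 3.36-fold, in Gclc (0.397-fold to 1.62-fold), in Txnrd1 (0.309-fold to 1.29-fold) and in Cat (0.711-fold to 2.21-fold). They lay outside it in Keap1, Nqo1, Gclm, Srxn1, Slc7a11 and Sod3, though for Slc7a11 the interval reached down to 0.505-fold. Keap1, Gclm and Sod3 had intervals of 0.749-fold to 1.19-fold, 0.694-fold to 1.10-fold and 0.933-fold to 1.78-fold. Keap1, Nqo1, Srxn1 and Slc7a11 were below the array median on 6, 7, 5 and 7 of the 7 arrays. A dim probe set can hide a change, so their intervals may be too narrow. The fit also assumes the same spread in both genotypes. For Slc7a11 the SD was 0.63 in wild type and 0.02 in knockout, so lying outside this interval does not exclude a 2-fold difference. A p that misses the threshold does not show that the genotypes were alike.

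Around the 10 genes, 6 lists of the same pathways held 97 measured genes, and none of the 97 passed an adjusted p under 0.05 in limma. Of the 14 NRF2 regulators and partners, such as the ubiquitin ligase subunits, the small MAF proteins and the competing BACH repressors, 8 had a higher and 6 a lower mean in knockout, with a median difference of 0.05. Nfe2l3, an NRF2 relative, differed by -0.27 (SE 0.19), Dpp3, a peptidase that binds KEAP1, by -0.37 (SE 0.27), and Mafk, a small MAF partner, by 0.33 (SE 0.25). Dpp3 was at 4.97 on wild type replicate 1 and at 3.86 to 3.91 on the other 6 arrays. Its difference was -0.01 without wild type replicate 1.

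Of 21 other NRF2 targets, 9 were higher and 12 lower, with a median of -0.10. Ptgr1, a reductase of lipid electrophiles, differed by -0.46 (SE 0.31), Cbr3, a carbonyl reductase, by 0.23 (SE 0.15), and Me1, malic enzyme, which supplies NADPH, by 0.66 (SE 0.50). Me1 was at 3.96 on wild type replicate 3 and between 5.03 and 6.51 elsewhere, and its difference was 0.11 without that array.

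Glutathione S-transferases, which couple glutathione to electrophiles, held 2 of the 3 pathway genes with an unadjusted limma p under 0.05. Those 3 were among 97 measured, where 1.88% of all genes had such a p. Of 16 measured, 12 were higher and 4 lower in knockout, with a median of 0.23, where 51.7% of all genes were higher. Both genes with an unadjusted limma p under 0.05 were higher, against 1.03% of all genes. Gstm3 was at 3.26, 2.56, 2.41 and 2.03 in knockout and at 1.76, 1.75 and 1.87 in wild type. Every knockout array was above every wild type array, at a difference of 0.77 (SE 0.28), and the limma p was 0.0265 unadjusted and 0.9995 adjusted. All values were below the array medians and probes of the near-identical Gstm genes can cross-hybridise. Gsta4, which acts on lipid peroxidation products, was at 5.20, 4.66, 4.87 and 4.34 in knockout and at 4.07, 4.37 and 4.28 in wild type. Its difference was 0.53 (SE 0.22), with a limma p of 0.0457 unadjusted and 0.9995 adjusted, and the genotypes overlapped through knockout replicate 4. Mgst2, a microsomal transferase, differed by 0.67 (SE 0.29). The largest difference of the list in size was that of Gstp1, lower in knockout at -1.36 (SE 0.60). Gstp1 was at 8.34 on wild type replicate 1 and at 4.94 to 6.11 on the other arrays. The median of the list was -0.05 without wild type replicate 3, 0.36 without replicate 1 and 0.04 with replicate 2 as the only wild type array. Without replicate 3, 8 of the 16 were lower in knockout, against 41% of all genes.

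Of 16 genes of glutathione synthesis and use, 7 were higher and 9 lower, with a median of -0.02. Glrx, glutaredoxin, differed by -0.37 (SE 0.20), and Oplah, 5-oxoprolinase, which returns glutamate to the cycle, by -0.43 (SE 0.26). Both were highest on wild type replicate 1, Glrx at 4.29 and Oplah at 4.80, and the third gene named from this list was Slc3a2, described above.

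Of 16 thioredoxins, peroxiredoxins and related genes, 9 were higher and 7 lower, with a median of 0.02, and 1 had an unadjusted limma p under 0.05, lower in knockout, against 0.854% of all genes. That gene was Prdx1, a peroxiredoxin that is itself a target of NRF2 and a substrate of sulfiredoxin. Prdx1 was at 4.14, 4.57, 4.12 and 5.43 in knockout and at 6.36, 5.62 and 5.08 in wild type. Wild type replicates 1 and 2 were above all knockout arrays and replicate 3 was below knockout replicate 4. The difference was -1.12 (SE 0.41), with a limma p of 0.0282 unadjusted and 0.9995 adjusted, and leaving out 1 array at a time gave -1.42 to -0.78. Sesn3, a sestrin, differed by -0.77 (SE 0.39), and Txn1, thioredoxin, by 0.58 (SE 0.49), the latter turning to -0.08 without wild type replicate 3.

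Of 14 superoxide dismutases and oxidase subunits, 7 were higher and 7 lower, with a median of 0.05. Sod1, cytosolic superoxide dismutase, was at 9.18, 8.78, 9.22 and 9.54 in knockout and at 7.92, 9.07 and 8.66 in wild type, a difference of 0.63 (SE 0.30). It moved to 0.32 without wild type replicate 1, the array where Sod1 was lowest. Ncf4, a cytosolic subunit of the phagocyte oxidase, differed by 0.27 (SE 0.14), and Nox4, an oxidase of fibroblasts, by 0.27 (SE 0.18), with 0.11 without wild type replicate 1.

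**Figure D4:**
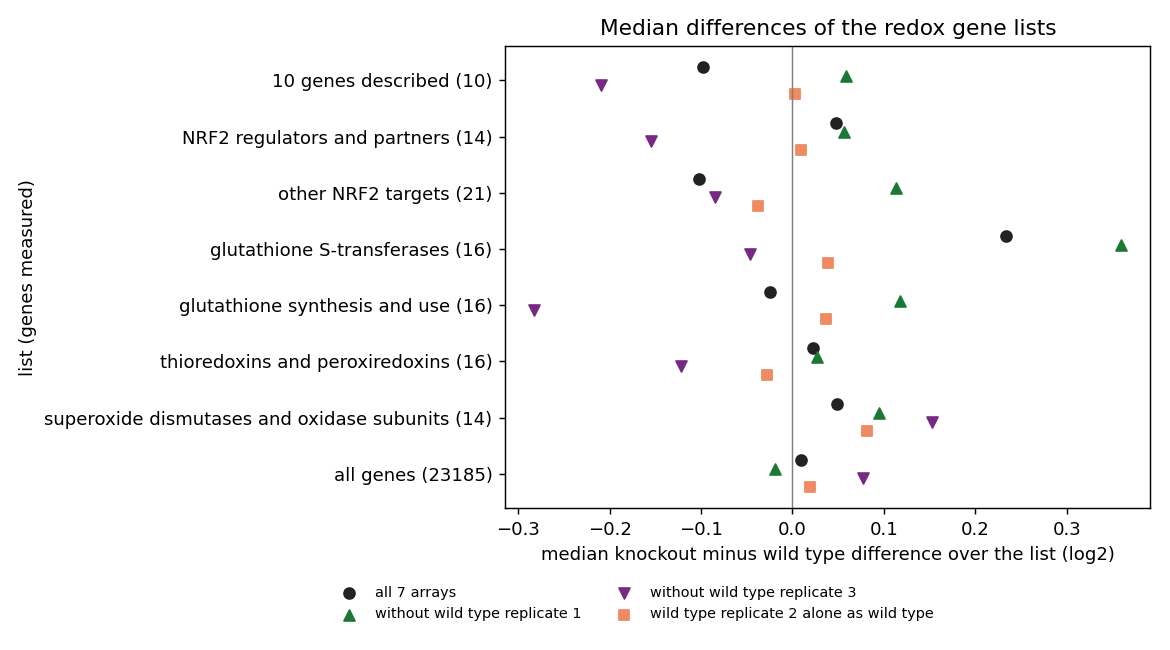
Median knockout minus wild type difference (x axis, log2) over the 10 genes, over each of the 6 pathway lists and over all 23185 genes (y axis, number measured in brackets), from all 7 arrays, without wild type replicate 1, without replicate 3, and with replicate 2 as the only wild type array. The median of the 10 genes moves from -0.21 without replicate 3 to 0.06 without replicate 1, and that of the glutathione S-transferases from -0.05 to 0.36.

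By the mean absolute difference of centred log2 values over the 7 arrays, the genes most like Nfe2l2, among genes at least as variable, were Fxyd5 (0.0946), Rab10 (0.115) and Usp25 (0.123). All 3 were at their lowest on wild type replicate 3, Fxyd5 at 5.50, Rab10 at 4.38 and Usp25 at 4.80. The genes most like Nqo1 were Dnaaf5 (0.0129), Eif4e3 (0.0227) and Pgam2 (0.0244), each with 1 value shared by its 3 wild type arrays and its highest value on knockout replicate 4.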

How the data were processed

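Total RNA of 7 skin samples was hybridised to Affymetrix whole-transcript arrays, 1 array a sample, per the labels' protocols. The authors deposited log2 values after RMA, per the submitters' processing notes; version, probe-set definition and build are not given in the sources used here. Of 25206 probe sets, 23185 had 1 gene symbol and no gene had more than 1 probe set; 2021 were unnamed here. Names were updated by Entrez number through RefSeq (GRCm38.p6).

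Genotypes, taken from sample titles, were tested against each other in limma 3.58.1 under R 4.3.3 (lmFit, eBayes, two-sided, Benjamini-Hochberg adjustment over all 23185 genes, threshold 0.05), on the values as deposited. The fit was tested on simulated data with the same spread in both genotypes, so that test does not cover the unequal spread seen here. Lists are described by counts and medians. Named were the 10 genes, Tnfsf4, the 3 smallest p of each pathway list, and the 3 genes most like Nfe2l2 and Nqo1. Gstp1, Prdx2 and Hbb-b1 were named besides, outside the 35 genes examined for a far array below. Members and lists were chosen with earlier results of these data known. Pathway list genes not analysed here included G6pdx, Gsta1, Gsta2, Gstp2, Ggt1, Prdx5 and Prdx6. The labels do not say whether samples came from separate animals, and pairs of arrays share a code number, so p-values reflect only how far these samples scatter, part of which may be technical, and precision is limited by the number of arrays. Alternatives changed the moderation, the filter, the scaling, array weights, blocks, covariates and the arrays used. Figures were drawn with matplotlib 3.10.9 in Python 3.11.15.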

Additional observations from a re-analysis of the deposited data

Results flagged for a closer look

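In the group of 4 knockout arrays, 1 array was far from the other 3 in 10 of the 35 genes named, by a gap to its neighbour that took up most of the group's range (Dixon's test). Chance gives about 1 in 20 groups where values are continuous, but the same gap was found in 20.3% of all genes, beside 28.6% of those named, and in 8.89% of all genes the other 3 values were equal. The ratio was 1 where the other 3 values were equal to every digit, as for Gclc (knockout replicate 1, 4.49), Gclm (knockout replicate 2, 4.77), Dpp3 (knockout replicate 3, 3.86) and Glrx (knockout replicate 3, 3.34); the whole knockout range of Gclc was 0.00583. It was 0.983 for Tnfsf4 (knockout replicate 1, 3.35), 0.908 for Mafk (knockout replicate 1, 5.98), 0.932 for Cbr3 (knockout replicate 1, 4.87), 0.852 for Oplah (knockout replicate 3, 3.41), 0.879 for Nox4 (knockout replicate 3, 5.43) and 0.861 for Usp25 (knockout replicate 4, 7.40). The wild type group, with 3 arrays, was not examined this way.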

How the results depend on the processing

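Of the 10 genes, Keap1, Gclm, Txnrd1 and Sod3 kept their direction in every alternative run. Runs that changed only the moderation, the filter or the probe sets tested leave the difference unchanged, so they cannot turn it. With array weights, 1 of the 10 was called (Gclm, -0.32, limma adjusted p = 0.0210) and 3 had an unadjusted p under 0.05, but the weight estimation did not converge and put 75.4 on wild type replicate 2 against 0.106 and 0.109 on replicates 1 and 3, and 17.4% of all genes were called. Those weights also called Gstm3 (0.82), Prdx1 (-1.09) and Sesn3 (-0.42) and turned Nfe2l2 (-0.39), Gclc (0.26), Srxn1 (0.23), Slc7a11 (0.081), Cat (-0.019), Slc3a2 (0.15), Fxyd5 (-0.39), Rab10 (-0.21) and Usp25 (-0.49). In the other alternatives 0 of the 10 were called, with a smallest limma adjusted p of 0.422. Counts at an unadjusted p under 0.05 were 1 after quantile normalization, 1 after scaling to one SD, 1 with array SD as a covariate, 1 with keratinocyte markers as a covariate and 1 with wild type replicate 2 alone; with single arrays left out they ran from 0 to 1. The number lower in knockout was 3 without the dimmest 50% of genes, where 6 of the 10 were tested, 3 with hair follicle markers as a covariate, and 3 to 8 with single arrays left out. The number with no overlap was 5 with wild type replicate 2 alone and 0 to 3 with single arrays left out; it has no value under fits that keep all arrays.

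Wild type replicate 2 alone turned Nfe2l2 (-0.37), Gclc (0.26), Srxn1 (0.22), Slc7a11 (0.081), Cat (-0.019), Slc3a2 (0.15), Fxyd5 (-0.37), Rab10 (-0.19) and Usp25 (-0.46), on the assumption that 1 wild type array varies as the knockout group does. Hair follicle markers as a covariate turned Gclc (0.32), Srxn1 (0.17), Slc7a11 (0.029), Tnfsf4 (-0.23), Dpp3 (0.0062), Slc3a2 (0.0055) and Pgam2 (-0.024). Nqo1 turned after quantile normalization (-0.045), and Tnfsf4 after it (-0.059), after scaling to one SD (-0.053), with the code number as a random block (-0.081) and with array SD as a covariate (-0.10). With single arrays left out, ranges that crossed 0 were -0.55 to 0.81 for Nfe2l2, -0.63 to 0.28 for Gclc, -0.027 to 0.060 for Nqo1, -0.28 to 0.092 for Srxn1, -0.55 to 0.021 for Slc7a11, -0.10 to 0.58 for Cat, -0.18 to 0.38 for Tnfsf4, -1.14 to 0.021 for Slc3a2, -0.082 to 1.004 for Txn1, -0.63 to 0.76 for Fxyd5, -0.41 to 0.97 for Rab10, -0.55 to 0.74 for Usp25, -0.021 to 0.075 for Dnaaf5 and -0.060 to 0.050 for Pgam2. The cause of these turns was not tested.

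The replicate numbers did not pair the arrays: deviations of same-numbered arrays correlated across genes at -0.086, -0.15 and 0.034 for numbers 1, 2 and 3. With the replicate block, which leaves knockout replicate 4 without a partner, Nqo1 (-0.027), Srxn1 (0.029), Dnaaf5 (-0.021) and Pgam2 (-0.060) turned and 0 of the 10 genes were called. With the shared code number as a random block (consensus correlation 0.18), and with the suffix of the code as a block, 0 of the 10 were called.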
